A study of Mus musculus with 2 samples.

Results

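The genes described here act in lipid efflux, storage and uptake in macrophages. They are Abca1, Abcg1, Apoc1, Pltp, Plin2, Soat1, Nr1h3, Npc2, Lipa and Msr1, 10 of the 31053 genes in the count tables, chosen by their known function. All 10 were listed in both tables. The cells came from the retinas of C57BL/6 mice aged 8 to 10 months, perfused and then sorted for CD45, which white blood cells and microglia display. The 2 libraries were 1 labelled as an Igfbpl1 knockout and 1 labelled wildtype, and the design text speaks of 10 mice of each genotype. How many mice entered each library, and which part of Igfbpl1 the mutant allele lacks, is not given in the sources used here. With 1 library per genotype no difference has a replicate check, so no p-value is given, and every interval below is a 95% interval for counting error only.

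Macrophages take up lipoproteins and cell debris through scavenger receptors and digest the lipid in lysosomes. Free cholesterol then leaves the lysosome and is either exported to apolipoproteins by ABC transporters or esterified and kept in lipid droplets. In sterol-loaded cells the liver X receptors switch on the export genes, and microglia of the aged or injured nervous system are known for lipid droplets and for high Apoe.

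The library labelled knockout held 1785 barcodes and 7945713 unique molecular identifiers (UMIs), and the library labelled wildtype 2735 barcodes and 11020717 UMIs. They shared 1 barcode. Cells were assigned by raw marker counts. The gate for microglia took 1477 cells in the library labelled knockout and 2383 in the library labelled wildtype. A gate for border macrophages, the macrophages of vessels and meninges, took 27 and 37 cells. A gate for cells rich in Spp1, Gpnmb, Fabp5 and Lgals3, called Spp1-high here, took 14 and 8, and a gate for Müller glia, the radial glia of the retina, took 36 and 50. All 7 microglial markers had counts in the microglial gate of both libraries, and Lyve1 was at 0 in the border macrophages of the library labelled knockout. The Spp1-high and border macrophage values therefore rest on few cells. Of the border macrophages, 7 of 27 in the library labelled knockout and 10 of 37 in the library labelled wildtype lay exactly at the gate's threshold of 3 marker UMIs. Microglial markers summed higher than border markers in that gate, where the 7 microglial ones summed to 1717.8 CPM in the library labelled knockout and 1965.8 CPM in the library labelled wildtype, and the 5 border ones to 1480.2 and 1679.6 CPM. The Müller glia gate held microglial markers unevenly, at 30.4 CPM in the library labelled knockout and 642 CPM in the library labelled wildtype. Its own markers summed to 9925.9 and 8887 CPM.

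Igfbpl1 went against the labels. It had 29 counts in 27 barcodes of the library labelled knockout (3.65 CPM, counts per 1000000 UMIs, interval 2.44 to 5.24), against 2 counts in the library labelled wildtype (0.181 CPM, interval 0.022 to 0.656). Libraries are therefore called by their labels, and no direction below can be tied to the loss of the gene.

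The exporters among the genes are Abca1, which loads cholesterol onto lipid-poor apolipoproteins, and Abcg1, which exports it to mature particles. Of the genes with a promoter window, Abca1 and Plin2 were counted as at least 2-fold higher in border macrophages than in microglia in both libraries. Their windows are shown here. Each runs from 250 bases before to 50 bases after the RefSeq start, on the minus strand of GRCm38.p6, Abca1 at chr4:53159846-53160145 and Plin2 at chr4:86670010-86670309. Of the 10 genes, 7 had such a window. Capitals mark matches to 2 motifs searched on both strands, CACGTG and NGGTNANNNNNGGTNA, a loose form of a repeat to which liver X receptors can bind.
Abca1: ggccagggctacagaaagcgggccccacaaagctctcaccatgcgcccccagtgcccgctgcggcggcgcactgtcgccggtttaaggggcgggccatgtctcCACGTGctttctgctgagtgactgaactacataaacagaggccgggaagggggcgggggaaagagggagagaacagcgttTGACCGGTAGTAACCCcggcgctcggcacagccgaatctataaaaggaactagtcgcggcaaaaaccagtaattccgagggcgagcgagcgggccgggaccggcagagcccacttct
Plin2: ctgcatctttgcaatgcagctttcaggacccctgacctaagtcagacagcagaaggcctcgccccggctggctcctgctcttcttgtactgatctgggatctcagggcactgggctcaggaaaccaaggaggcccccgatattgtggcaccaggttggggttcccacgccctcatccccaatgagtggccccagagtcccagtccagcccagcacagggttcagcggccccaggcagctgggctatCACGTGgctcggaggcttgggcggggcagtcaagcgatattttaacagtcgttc

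The first base of CACGTG lay at -147 from the start in Abca1 and at -4 in Plin2. The longer motif matched Abca1 on the opposite strand, with its first printed base at -67, where the strand reads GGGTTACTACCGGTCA. Among 32851 promoter windows of the same length, 7.15% held CACGTG and 0.718% held the longer motif. The windows of Soat1, Nr1h3, Pltp, Npc2 and Lipa held neither motif. Of these, Pltp, Lipa and Soat1 also had a higher level in border macrophages than in microglia in both libraries. The matches describe letters, binding was not measured, and no link between motifs and levels was tested.

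In microglia Abca1 stood at 63.99 CPM in the library labelled knockout and 56.89 CPM in the library labelled wildtype, a ratio of 1.13 (interval 0.989 to 1.28). Abcg1 stood at 22.99 CPM in the library labelled knockout and 20.11 CPM in the library labelled wildtype (ratio 1.14, interval 0.920 to 1.42). Neither transporter's ratio was beyond counting error. With the gates as set, border macrophages held more Abca1 than microglia in both libraries. Its level there was 176.7 CPM in the library labelled knockout, 2.76 times that of microglia, and 173.6 CPM in the library labelled wildtype, 3.05 times that of microglia. A border macrophage gate of 5 UMIs and 3 markers left 3 cells in the library labelled knockout and 5 in the library labelled wildtype. Abca1 was at 57.94 and 61.04 CPM there, against 66.8 and 59.45 CPM in microglia. The excess was not seen in these few cells, which cannot order the gates. After thinning Abca1 was at 74.07 CPM in border macrophages and 57.69 CPM in microglia of the library labelled knockout. It was at 162.2 and 53.15 CPM in the library labelled wildtype. The thinned border macrophages showed it in 1 of 27 and 5 of 37 cells. For Abcg1 the border macrophages held 5 counts in the library labelled knockout and 4 in the library labelled wildtype, too few to order the gates. In Spp1-high cells Abca1 had 24 counts in 6 of 14 cells of the library labelled knockout, and 5 counts, all in 1 of 8 cells, in the library labelled wildtype.

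Nr1h3 encodes LXR alpha, a sterol-sensing nuclear receptor that drives Abca1 and Abcg1. It was close to the detection limit everywhere, with 7 counts in the microglia of the library labelled knockout and 6 in those of the library labelled wildtype. No count fell in the Spp1-high cells of either library, where 3 counts would have been 16.2 CPM in the library labelled knockout and 40 CPM in the library labelled wildtype. Nr1h2, the gene of the related LXR beta, was at 53.7 CPM in microglia of the library labelled knockout and 49.11 CPM in those of the library labelled wildtype.

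Apoc1 and Pltp act on the particles themselves, Apoc1 as a small apolipoprotein whose gene lies beside Apoe on chromosome 7, and Pltp as a phospholipid transfer protein of lipoproteins. With the gates as set, border macrophages held far more Apoc1 than microglia. Their level was 292.4 CPM in the library labelled knockout, 11.8 times that of its microglia (interval 8.36 to 16.4), and 1107 CPM in the library labelled wildtype, 65.2 times that of its microglia (interval 53.3 to 80.0). With the border gate of 5 UMIs and 3 markers, Apoc1 was at 0 CPM in 3 cells of the library labelled knockout. Microglia of that library were then at 31.25 CPM. In the library labelled wildtype it was at 366.3 CPM in 5 cells and 38.77 CPM in microglia. The gene was also lower in the border macrophages of the library labelled knockout, with 48 counts there against 236 in the library labelled wildtype and a ratio of 0.264 (interval 0.189 to 0.362). Single cells weighed on both sums, since 1 cell held 29 of the 48 counts in the library labelled knockout and 1 cell held 66 of the 236 in the library labelled wildtype. Without the Apoc1-richest cell of each library the log2 ratio was -2.79, against -1.92 with all cells. The sum of MHC class II genes differed in the same direction. Their 4 markers summed to 6962.5 CPM in the border macrophages of the library labelled knockout and 16946.0 CPM in those of the library labelled wildtype, and their part in the result was not tested. In the library labelled wildtype, 10 of 19 border macrophages with Apoc1 and 16 of 18 without it had 3 or more MHC class II UMIs. In the library labelled knockout these were 6 of 9 and 11 of 18. Leaving out cells of 3 or more MHC class II UMIs left 10 border macrophages in the library labelled knockout and 11 in the library labelled wildtype. Their Apoc1 was at 497.6 and 636 CPM, a log2 ratio of -0.35 that no longer passed 1.5-fold.

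Microglial Apoc1 lay in few cells. It was found in 34 of 1477 microglia of the library labelled knockout (2.30%, Clopper-Pearson interval 1.60 to 3.202) and in 20 of 2383 of the library labelled wildtype (0.839%, interval 0.513 to 1.29). Müller glia, which served as a cell type of another lineage, showed it in 22.2% and 12% of cells, at median depths of 5794 and 5020 UMIs against 4372 and 3984 in microglia of the libraries labelled knockout and wildtype. The microglial shares lay below those of Müller glia without thinning. After thinning, Müller glia showed it in 1 of 32 cells (interval 0.079 to 16.22%) and 2 of 49 cells (interval 0.498 to 13.98%). The thinned microglial shares were 1.648% (interval 1.059 to 2.443) and 0.425% (interval 0.204 to 0.781). These intervals overlap in both libraries, so the few thinned Müller glia cannot order the gates. The microglial shares are not read as a difference. The microglial level was 24.81 CPM in the library labelled knockout and 16.98 CPM in the library labelled wildtype (ratio 1.46, interval 1.17 to 1.82). In the library labelled wildtype 1 cell held 79 of the 168 counts, and without the Apoc1-richest cell of each library the log2 ratio was 1.20, against 0.55 with all cells. With the border macrophage gate of 5 UMIs and 3 markers, which left more cells to the microglial gate, the log2 ratio was -0.31. MHC class II-rich cells, those with 3 or more such UMIs, were 3 of the 34 Apoc1-positive microglia in the library labelled knockout and 11 of the 20 in the library labelled wildtype. Without such cells the level was 24.5 CPM in the library labelled knockout and 2.621 CPM in the library labelled wildtype, a log2 ratio of 3.23.

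Pltp lay mostly outside the 4 gates. Cells in no gate held 131 of its 159 counts in the library labelled knockout (82.4%) and 67 of its 110 counts in the library labelled wildtype (60.9%). Of these, 89 counts in the library labelled knockout and 55 in the library labelled wildtype sat in 3 cells of each library that carried at least 5 UMIs of the endothelial markers Cldn5, Pecam1, Cdh5 and Flt1. In those cells Pltp reached 4442 CPM in the library labelled knockout and 2428 CPM in the library labelled wildtype. Microglia had 13 counts in the library labelled knockout and 9 in the library labelled wildtype. In border macrophages it stood at 60.91 CPM in the library labelled knockout and 112.6 CPM in the library labelled wildtype (ratio 0.541, interval 0.231 to 1.17), and 15 of the 24 counts in the library labelled wildtype came from 1 cell. Without the Pltp-richest cell of each library the log2 ratio was 0.01, against -0.89 with all cells. Border macrophage Pltp was 31.0 times that of microglia in the library labelled knockout (interval 12.2 to 76.5). In the library labelled wildtype it was 123.8 times that of microglia (interval 55.6 to 302.7). Its mean lay below the 50 CPM minimum used between gates, so it is not among the genes counted there.

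Plin2 coats lipid droplets and serves as their usual marker. It stood at 421.9 CPM in Spp1-high cells of the library labelled knockout and 293.4 CPM in those of the library labelled wildtype. These levels were 8.01 times that of microglia in the library labelled knockout (interval 6.19 to 10.3) and 7.19 times in the library labelled wildtype (interval 4.45 to 11.03). Counts per Spp1-high cell ran from 0 through a median of 4 to 24 in the library labelled knockout, with 12 of 14 cells positive, and from 0 through a median of 2 to 7 in the library labelled wildtype, with 6 of 8 positive. These cells were also deep, with median UMI counts of 12514.5 in the library labelled knockout and 10062 in the library labelled wildtype, so that counts per cell cannot be set beside those of microglia. Border macrophages were intermediate with the gates as set, at 158.4 CPM in the library labelled knockout and 126.7 CPM in the library labelled wildtype. With the border gate of 5 UMIs and 3 markers, Plin2 was at 0 CPM in 3 cells of the library labelled knockout. Microglia of that library were then at 55.25 CPM. In microglia Plin2 was higher in the library labelled knockout, at 52.64 CPM against 40.83 CPM in the library labelled wildtype (ratio 1.29, interval 1.11 to 1.49). The Spp1-high markers moved the same way in the microglial gate, where all 4 had counts in both libraries and summed to 151.9 CPM in the library labelled knockout and 33.25 CPM in the library labelled wildtype. Without microglia of 3 or more of these marker UMIs, 24 cells in the library labelled knockout and 18 in the library labelled wildtype, Plin2 was at 46.29 and 39.66 CPM, a log2 ratio of 0.22 against 0.37 with all cells.

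Soat1 esterifies cholesterol for storage in droplets. Its microglial level went the other way, at 78.05 CPM in the library labelled knockout and 92.87 CPM in the library labelled wildtype (ratio 0.841, interval 0.753 to 0.937). After thinning each cell to 1000 UMIs, 6.80% of microglia showed Soat1 in the library labelled knockout and 8.63% in the library labelled wildtype. The thinned Müller glia showed it in 4 of 32 cells (12.5%) and 2 of 49 cells (4.08%). These Müller shares rest on few cells, and the microglial share is not read as a difference. In Spp1-high cells Soat1 reached 259.6 CPM in the library labelled knockout, 3.33 times that of microglia, and 133.3 CPM in the library labelled wildtype, 1.44 times that of microglia with an interval that includes 1.

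Npc2 and Lipa work in the lysosome, Lipa as the acid lipase that frees cholesterol from its esters and Npc2 as the carrier that passes it on. Npc2 was detected in 93.5% of microglia of the library labelled knockout and 94.0% of those of the library labelled wildtype, against 61.1% and 74% of Müller glia. Its microglial level was 1069 CPM in the library labelled knockout and 1088 CPM in the library labelled wildtype (ratio 0.982, interval 0.953 to 1.01). Lipa stood at 116.9 CPM in the library labelled knockout and 114.1 CPM in the library labelled wildtype (ratio 1.02, interval 0.934 to 1.12). Both ratios lay within counting error of 1. In Spp1-high cells Npc2 was 1.83 times as high as in microglia in the library labelled knockout and 2.90 times in the library labelled wildtype. Müller glia had lower Npc2 than microglia in both libraries, at 294.2 CPM in the library labelled knockout and 311.7 CPM in the library labelled wildtype, and Lipa was at 3 and 7 counts there. Border macrophage Lipa was at 280.2 CPM in the library labelled knockout and 183 CPM in the library labelled wildtype, and the interval of the ratio of 1.53 runs from 0.978 to 2.41.

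Msr1, a class A scavenger receptor that takes up modified lipoproteins, was highest in border macrophages among the 4 gates. It stood there at 140.1 CPM in the library labelled knockout, in 12 of 27 cells, and at 93.83 CPM in the library labelled wildtype, in 13 of 37 cells. Those levels were 66.2 times that of microglia in the library labelled knockout (interval 32.6 to 139) and 40.4 times in the library labelled wildtype (interval 21.0 to 76.9). Microglia held 14 counts in the library labelled knockout and 23 in the library labelled wildtype, and Müller glia held none in either library, where 3 counts would have been 15.2 and 11.1 CPM. Border macrophages held 41.8% of the Msr1 counts in the library labelled knockout and 40% in the library labelled wildtype. MHC class II-rich microglia with 4 or more Apoe UMIs after thinning held 5 and 9 counts, at 46.47 and 40.26 CPM. Cells in no gate with at least 5 monocyte marker UMIs held 9 and 2 counts, at 45.16 and 32.3 CPM.

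Counted together, 7 of the 10 genes reached a mean of 20 CPM in microglia and none of these passed a 1.5-fold difference between the libraries. Of all 6045 genes at that level, 0.463% were higher in the library labelled knockout and 0.662% lower by 1.5-fold. The median log2 ratio of the 7 genes was 0.17, beside -0.03 for all genes at that level. In border macrophages 8 reached a mean of 50 CPM, of which Lipa was higher and Apoc1 and Pltp were lower in the library labelled knockout, where 14.3% of 2741 genes were higher and 11.9% lower. In the 14 and 8 Spp1-high cells 5 reached that level and 4 passed 1.5-fold, where 18.3% of 2440 genes were higher and 25% lower. Npc2 was lower in the library labelled knockout, at a ratio of 0.620 (interval 0.525 to 0.733). Lipa had a ratio of 1.85 (interval 1.03 to 3.58), but stood at 361.4 CPM in the library labelled knockout and 385.1 CPM in the library labelled wildtype when the gate did not require Spp1. Abca1 and Soat1 each had a ratio of 1.95, with intervals of 0.728 to 6.53 and 0.973 to 4.32 that include 1. Without the 2% deepest cells both directions turned, Abca1 at 27.09 CPM in the library labelled knockout and 275.7 CPM in the library labelled wildtype, and Soat1 at 135.4 and 165.4 CPM. Abca1 also turned with equal weight per cell and Soat1 with the gate that did not require Spp1, so that neither gene is read as different between the libraries in these cells. MHC class II markers summed to 3418.3 CPM in the Spp1-high cells of the library labelled knockout and 107 CPM in those of the library labelled wildtype. Leaving out cells of 3 or more such UMIs left 13 of the 14 cells and all 8. Most of the sum in the library labelled knockout therefore lay in the cell left out. The sum does not describe these cells as a group, and no part in these differences is read from it. In Müller glia 3 reached it and Apoc1 passed 1.5-fold, where 11.8% of 3871 genes were higher and 12.5% lower. Apoc1 stood there at 81.15 CPM in the library labelled knockout and 37.11 CPM in the library labelled wildtype (interval of the ratio 0.933 to 5.39), so that it reached the level through the library labelled knockout alone. With thinning it was at 31.25 CPM in the library labelled knockout and 40.82 CPM in the library labelled wildtype, and no difference is read. Without border macrophages of 3 or more MHC class II UMIs, which left 10 and 11 cells, Msr1 was the 1 gene past 1.5-fold, lower in the library labelled knockout.

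**Figure D1:**
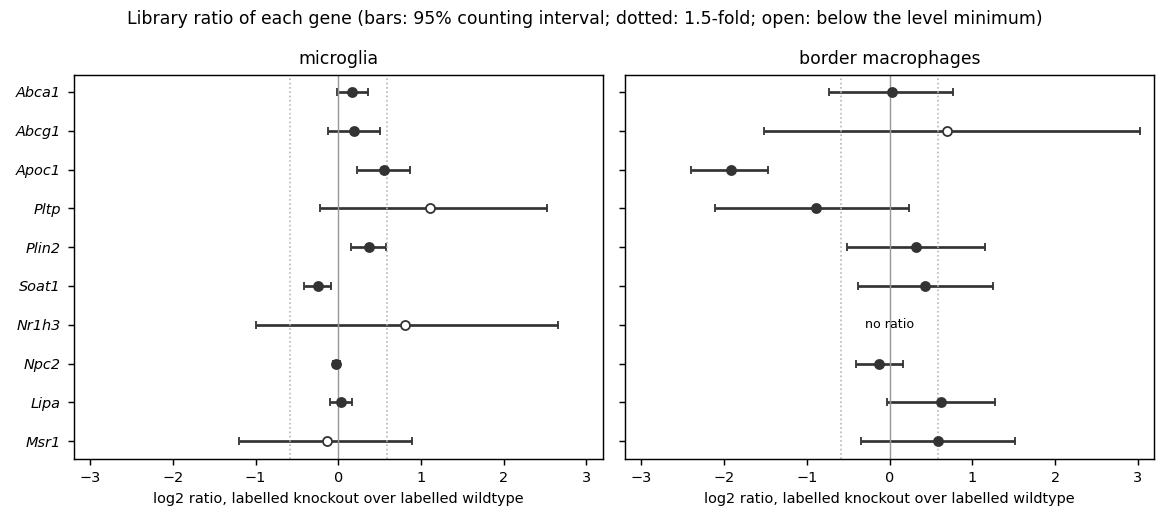
Log2 ratio of each gene, library labelled knockout over library labelled wildtype, in microglia and border macrophages, with 95% counting intervals; dotted lines mark 1.5-fold and open points lie below the level minimum. The microglial points that passed the minimum lie inside the dotted lines, and border macrophage Apoc1 stands at -1.92.

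Between gates, a gene was counted when it was at least 2-fold higher than in microglia in both libraries and the mean of the 4 values was at least 50 CPM. In border macrophages Abca1, Apoc1, Plin2 and Msr1 met this, 4 of 7 that reached the level, where 3.59% of 2926 genes did, and none was 2-fold lower, where 5.37% were. Apoc1 and Msr1 reached the level through the border macrophages alone, so that the level minimum fixed their direction, and microglial Plin2 also lay below 50 CPM on average. The count is therefore not read against that share. With a gate of 5 UMIs and 3 markers, which left 3 cells in the library labelled knockout and 5 in the library labelled wildtype, Msr1 alone met it. With thinning Abca1 and Msr1 no longer met it. In Spp1-high cells Plin2 met it, 1 of 5, where 4.66% of 2790 genes did, and none was lower, where 13.2% were. In Müller glia Npc2 and Lipa were at least 2-fold lower, 2 of 3, where 18.2% of 3690 genes were, and none was higher, where 24.8% were. Plin2 reached the level through the Spp1-high cells alone and Lipa through microglia alone, so that these counts are not read against the shares either. The median log2 ratio of all genes was not at 0 in these comparisons. It was -0.28 in the library labelled knockout and -0.22 in the library labelled wildtype for Spp1-high cells over microglia, -0.19 and -0.22 for border macrophages, and 0.30 and 0.25 for Müller glia.

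Apoe encodes the main apolipoprotein of glia and lies next to Apoc1. It was at 5178 CPM in microglia of the library labelled knockout and 2812 CPM in those of the library labelled wildtype, and most microglia had no Apoe after thinning to 1000 UMIs. In the library labelled knockout 1160 microglia had 0 Apoe UMIs, 147 had 1, 27 had 2 to 3 and 122 had 4 or more. In the library labelled wildtype these bins held 2088, 115, 31 and 118 cells. Apoc1 was counted in the highest bin alone in both thinned libraries. It had 44 counts in the cells of 4 or more Apoe UMIs of the library labelled knockout and 31 in those of the library labelled wildtype, and no count in the other 3 bins of either. Set against a floor of 3 counts in the Apoe-zero cells, its level was at least 139.5-fold higher in the library labelled knockout and at least 182.8-fold higher in the library labelled wildtype. With the counting error of the Apoe-high cells, the intervals of these ratios reach down to 108.7 and 140.

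Plin2 in the same cells of 4 or more Apoe UMIs was 2.32 times as high as in Apoe-zero microglia in the library labelled knockout (interval 1.08 to 4.56) and 3.24 times in the library labelled wildtype (interval 1.73 to 5.66). Abca1 was 2.90 times as high in the library labelled knockout (interval 1.61 to 4.99) and 1.64 times in the library labelled wildtype (interval 0.795 to 3.03). Lipa was 2.27 times as high in the library labelled knockout and 1.65 times in the library labelled wildtype. By the 1.5-fold rule in both libraries these were 4 of the 6 genes at a mean of 20 CPM, where 4.26% of 5792 genes were called, and none was lower, where 9.06% were. Apoc1 reached the level through the Apoe-high cells alone, so that its direction was fixed by the level minimum and the count is not read against that share. Which genes were called turned on the random thinning. A second draw called Abcg1, Apoc1 and Plin2, and all counts of the same binned cells called Abca1, Abcg1, Apoc1 and Plin2. Both were added after the values of the first draw had been seen. Apoc1 and Plin2 were called in these settings and in the other 5 tried, while Abca1, Abcg1 and Lipa were each called in some and missed in others. The log2 ratio of Plin2 ran down to 0.59 in the library labelled wildtype, close to the 1.5-fold line. By all counts its Apoe-high cells there held 51.51 CPM (interval 29.44 to 83.65) with 0 to 2 MHC class II UMIs and 120.8 CPM with 3 or more. In the library labelled knockout these were 155.9 and 92.93 CPM. Thinned Apoe-zero microglia held 38.79 CPM in the library labelled knockout and 39.27 CPM in the library labelled wildtype.

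**Figure D2:**
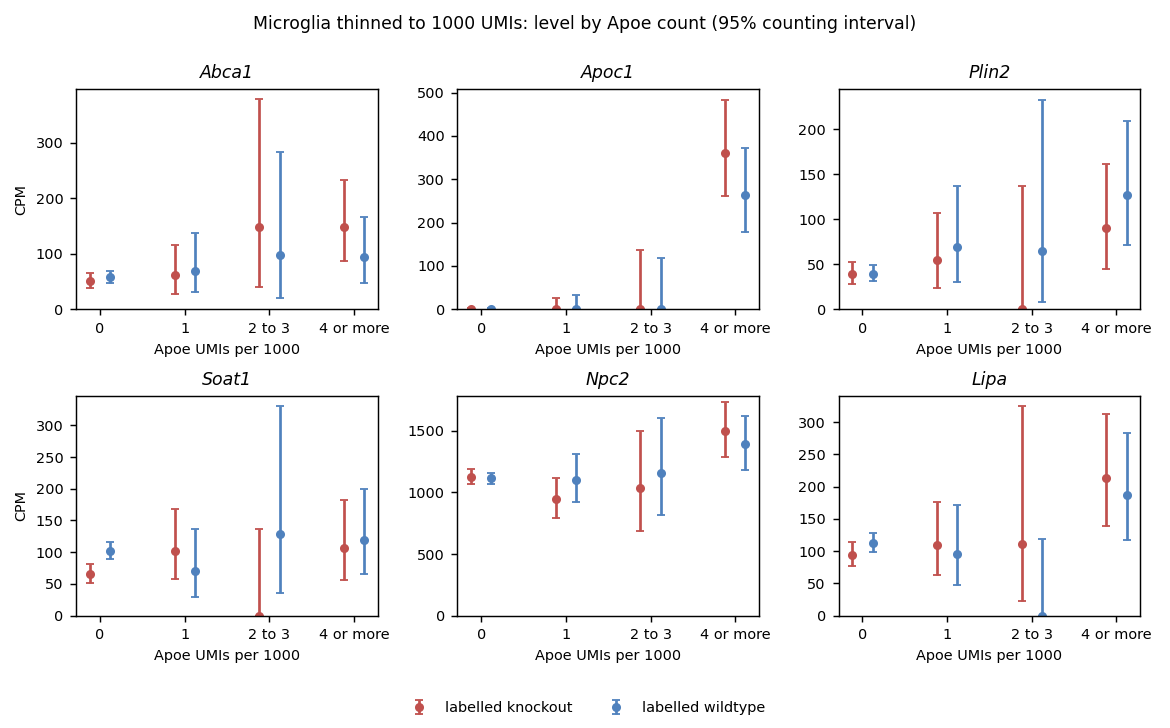
Level in CPM of 6 genes in microglia thinned to 1000 UMIs, by their Apoe count, for the library labelled knockout (left in each pair) and the library labelled wildtype, with 95% counting intervals. Apoc1 has no count below 4 Apoe UMIs in either library, and the bins of 1 and of 2 to 3 have wide intervals.

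Markers of other cells moved with Apoe in these microglia. The 7 microglial markers summed to 3992 CPM at 4 or more Apoe UMIs and 7942 CPM at 0 in the library labelled knockout, and to 4034 and 7847 CPM in the library labelled wildtype. MHC class II markers summed to 5623 and 119 CPM in the library labelled knockout, and to 4805 and 130.7 CPM in the library labelled wildtype. Border macrophage markers summed to 106.6 and 0.862 CPM in the library labelled knockout and to 169.5 and 1.92 CPM in the library labelled wildtype, and the Spp1-high markers to 508.2 and 22.41 CPM and to 101.7 and 11.49 CPM. Their part in the result was not tested. Without cells of 3 or more MHC class II UMIs, a setting added after the values had been seen, Abcg1, Apoc1 and Plin2 were called. In that thinning Lipa was lower in the Apoe-high cells, at a log2 ratio of -0.15 in the library labelled knockout and -0.33 in the library labelled wildtype. All counts of the Apoe-high cells with 0 to 2 MHC class II UMIs gave Lipa at 178.5 CPM (interval 142.9 to 220.1) and 141.6 CPM (interval 102.9 to 190.2). Thinned Apoe-zero microglia, MHC class II-rich cells included, held it at 93.97 and 113 CPM. No lower level of Lipa is therefore read.

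**Figure D3:**
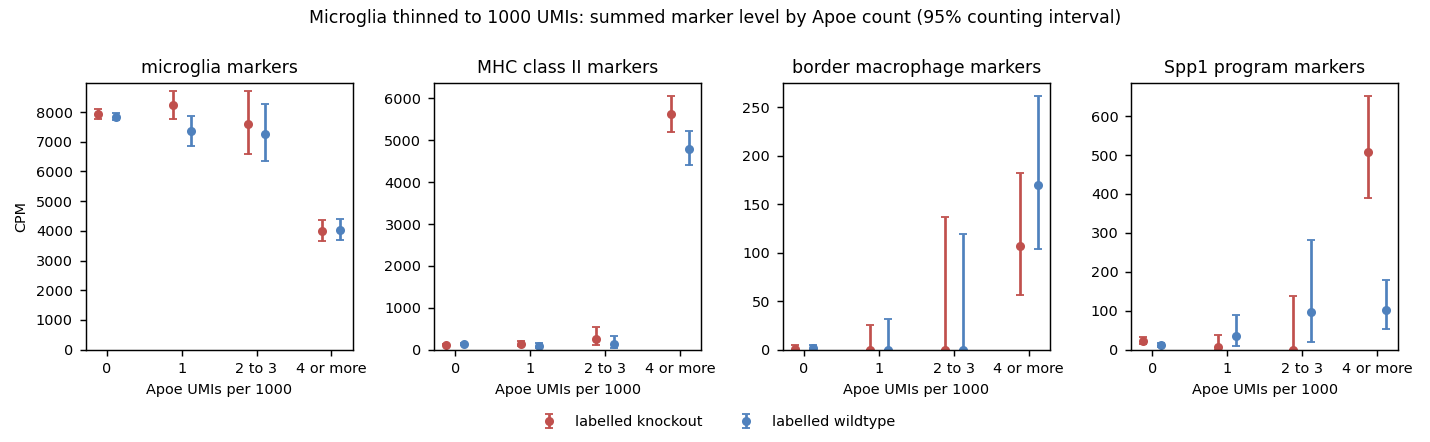
Summed marker level in CPM in microglia thinned to 1000 UMIs, by their Apoe count, for the library labelled knockout (left in each pair) and the library labelled wildtype, with 95% counting intervals. Microglial markers are lower and MHC class II, border macrophage and Spp1-high markers higher at 4 or more Apoe UMIs.

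Microglia with Apoc1 had a median of 249.5 Apoe UMIs in the library labelled knockout and 317 in the library labelled wildtype, against a median of 0 in Apoc1-negative microglia of both. The pairing was not complete in the unthinned counts. Fewer than 10 Apoe UMIs were found in 6 of the 34 Apoc1-positive microglia of the library labelled knockout, 3 of them with none, and in 2 of the 20 of the library labelled wildtype, both with none. Most Apoe-rich microglia had no Apoc1 count. Of the microglia with at least 10 Apoe UMIs, 28 of 135 in the library labelled knockout and 18 of 121 in the library labelled wildtype had Apoc1.

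Among 56 other listed lipid genes, 25 reached the level in microglia, 2 were at least 1.5-fold higher in the library labelled knockout and none lower, where 0.463% of 6045 genes were higher and 0.662% lower. They were Apoe (ratio 1.84, interval 1.81 to 1.87) and Fabp5, a fatty acid carrier, at 55.67 CPM in the library labelled knockout and 8.387 CPM in the library labelled wildtype (ratio 6.64, interval 5.22 to 8.53). Fabp5 reached the level through the library labelled knockout alone. It is one of the 4 Spp1-high markers whose sum differed in the same direction, and without microglia of 3 or more such UMIs, a cut that counts Fabp5 itself, it was at 3.766 CPM in the library labelled knockout and 4.088 CPM in the library labelled wildtype. The listed genes with the most microglial counts were Apoe, the lipid-sensing receptor Trem2, the lysosomal protein Cd68, the mitochondrial protein Tspo and the endocytic receptor Lrp1. In Spp1-high cells 7 of 19 were at least 2-fold higher than in microglia in both libraries and 1, Abca9, was lower, where 4.66% of 2790 genes were higher and 13.2% lower. Of these, Fabp5, Nceh1, Fabp3 and Apoc4 reached the level through the Spp1-high cells alone and Abca9 through microglia alone, so that the counts are not read against the shares. The 7 include Fabp5, which the gate itself used, and the lipoprotein lipase gene Lpl, at 178.5 CPM in the library labelled knockout and 133.3 CPM in the library labelled wildtype, against 54.3 and 49.62 CPM in microglia. In border macrophages Acsl1, Apoc4, Apoe and Stab1 were higher, 4 of 14, and Lpcat3 was lower, where 3.59% of 2926 genes were higher and 5.37% lower. Apoc4 reached the level through the border macrophages alone and Lpcat3 through microglia alone. Stab1, a scavenger receptor, was at 347.2 CPM in the library labelled knockout and 323.7 CPM in the library labelled wildtype, against 77.9 and 80.54 CPM in microglia.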

How the data were processed

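Single cells were sequenced by 10x Chromium 3' chemistry, per the labels' protocols. The authors deposited 1 table of raw UMI counts per library, made with Cell Ranger 3.1 and the mm10 build per the submitters' processing notes. Kept barcodes had 500 or more UMIs, 250 or more genes and no more than 15% mitochondrial reads, 1761 in the library labelled knockout and 2695 in the library labelled wildtype. Gates used raw marker UMIs over at least 2 genes: 3 for lymphocytes, 5 for Müller glia, 10 for Spp1-high cells (with Spp1 and C1q), 3 for border macrophages and 3 for microglia, in that order. At the microglial threshold of 3 UMIs lay 35 cells of the library labelled knockout and 54 of the library labelled wildtype, and just below it 35 and 39. At the border macrophage threshold lay 7 and 10 cells, and just below it 5 and 5. Doublets were not called. Counts were summed per gate and given as CPM with exact Poisson intervals, shares with Clopper-Pearson intervals, and ratios by the exact split of counts, with a floor of 3 counts (Python 3.11.15, scipy 1.17.1). The arithmetic of the library ratios and their intervals was checked on Poisson counts simulated from microglial levels. These draws did not let counts gather in single cells, so they cannot test the intervals on the genes described here. Thinning was checked against its expected counts in cells of the library labelled wildtype. The gates, shares and calls were not tested this way. Gene positions came from GENCODE for GRCm38 and promoters from RefSeq.

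The members and gene lists were chosen with earlier results of these data known. All 10 genes are described, other lipid genes come from 1 list of 56, and likeness was measured by Pearson correlation of log2(CPM + 20) over gates of at least 10 cells. Alternatives covered the cell filter, thinning, scaling and gates. Those without MHC class II-rich cells, without a gene's richest cell, without microglia rich in Spp1-high markers, with a second thinning draw and with all counts of the binned cells were added after the data had been seen.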

Additional observations from a re-analysis of the deposited data

Results flagged for a closer look

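Apoc1 differed between the libraries in opposite directions in border macrophages and microglia. The ratio of knockout-labelled to wildtype-labelled CPM was 0.264 in border macrophages, from 48 and 236 counts, and 1.46 in microglia, from 164 and 168 counts. With 1 library of each label, the difference between these ratios was not tested. The opposite directions depend on the gates: with a border macrophage gate of 5 UMIs and 3 markers microglial Apoc1 was at 31.25 CPM in the library labelled knockout and 38.77 CPM in the library labelled wildtype, a log2 ratio of -0.31. Without cells of 3 or more MHC class II UMIs the log2 ratio was -0.35 in border macrophages, at 497.6 and 636 CPM from 10 and 11 cells. In microglia it was then 3.23, at 24.5 and 2.621 CPM.

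Pltp had counts in cells that no gate took, 131 in the library labelled knockout and 67 in the library labelled wildtype. Cells with at least 5 monocyte marker UMIs and fewer endothelial ones held 26 of them in the library labelled knockout and 6 in the library labelled wildtype.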

How the results depend on the processing

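No paired analysis was possible because each label has 1 library. Of the log2 ratios recomputed, 363 stayed within their counting error of the reported value, 26 moved, and 5 reversed among ratios past both the fold and the level minimum. Those were Lipa in border macrophages, at -0.40 with a gate of 5 UMIs and 3 markers (3 and 5 cells) and -0.0687 without cells of 3 or more MHC class II UMIs, Lipa by Apoe, at -0.15 and -0.33 without those cells, and Pltp in border macrophages, at 0.014 without its richest cells. The reversal of Lipa by Apoe came from thinned counts, and all counts of the Apoe-high cells did not show it. In microglia Soat1 ran from -0.36 to -0.22, Plin2 from 0.22 to 0.59 and Apoc1 from -0.31 to 3.23. Border macrophage Apoc1 stayed below 0, from -2.79 to -0.35. Ratios short of the fold or of the level minimum also changed sign, 30 times over 14 ratios, among them Apoc1 in microglia (-0.31, stricter border gate), Abcg1 (-0.46) and Pltp (-0.31) in thinned microglia, and in border macrophages Abca1 (-1.13, thinned), Plin2 (-0.49, stricter gate) and Msr1 (-0.75, without MHC class II cells).

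The number of members past 1.5-fold in microglia (0) was 1 with equal weight per cell, with a gate of 1 UMI or without Müller marker UMIs, and 2 with thinning or without a level minimum. In border macrophages (3) it was 5 with thinning or without the 2% deepest cells, and 1 without MHC class II cells. The number at least 2-fold higher than in microglia was 1 with the stricter gate, 2 with thinning and 6 without MHC class II cells for border macrophages (4), and for Spp1-high cells (1) it was 3 without Spp1 required and 2 with median-ratio scaling or without the 2% deepest cells. The number higher in Apoe-high microglia (4) was 3 or 4 in all 7 alternatives, with Apoc1 and Plin2 in each. The causes were not tested. Counts were few for Nr1h3, Pltp and Msr1 in microglia, 6 to 23 per library, and the Spp1-high values rest on 14 and 8 cells.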

Other observations

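Over 6 values, 3 gates in each library, the level of Abca1 was most like that of Pxdc1 (Pearson r 0.9989), Plin2 most like Mndal (0.9968), Soat1 most like Cdc42se2 (0.9749), Apoc1 most like Hgsnat (0.9894), Npc2 most like Fau (0.9995) and Lipa most like Cd72 (0.9996). The 6 values share 2 libraries and 3 gates, so these describe the gates only. Cells outside every gate that carried at least 5 monocyte marker UMIs held Plin2 at 286 CPM in the library labelled knockout (28 cells) and 193.8 CPM in the library labelled wildtype (10 cells).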
